A study of Mus musculus with 10 samples.

Results

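Carbonic anhydrases were examined in the kidneys of old mice under calorie restriction, through 8 genes of the family: Car3, Car4, Car5b, Car8, Car9, Car12, Car14 and Car15. Their members were taken as every probe set whose platform annotation gave exactly 1 gene symbol equal to one of these names, which yielded 17 probe sets. The array named 18193 genes in this way. The working name of the group, membrane and cytosolic carbonic anhydrases, does not cover all 8: Car4, Car9, Car12, Car14 and Car15 are held in or on the cell membrane and Car3 and Car8 are cytosolic, but Car5b is a mitochondrial enzyme, and Car8 has no catalytic activity.

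The kidneys came from male C57BL/6 mice aged 30 months, 5 on the Calorie Restricted diet and 5 on the control diet, with 1 mouse on each Affymetrix Mouse Genome 430 2.0 array. The comparison asks which kidney transcripts differ in level under calorie restriction at old age. How strong and how long the restriction was, and the feeding state of the mice, is not given in the sources used here. Kidney tissue was measured, not sorted cells, so fewer cells of a type and less RNA per cell cannot be told apart in any value below.

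Carbonic anhydrases are zinc enzymes that interconvert carbon dioxide and water with bicarbonate and a proton. In the proximal tubule, enzymes on the brush border and in the cytosol act together with proton secretion to reclaim filtered bicarbonate, and in the intercalated cells of the collecting duct a cytosolic enzyme supplies the protons of the proton pump. The membrane enzymes work at the outer face of the cell, where they set the pH and bicarbonate of the tubule fluid or the tissue space.

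The values are MAS5 signals, a linear measure of brightness in which every array had been scaled to the same trimmed mean of 500.003. The median signal was 117.7 to 136 on calorie-restricted arrays and 115 to 121 on control arrays, and Spearman's rho between arrays over all probe sets was 0.922 to 0.951. The kidney label was checked against segment markers, and 13 of 13 proximal tubule, 9 of 9 thick limb and distal tubule, 7 of 7 principal cell and 7 of 7 intercalated cell markers named on the array passed the filter on low signals, which kept probe sets at or above the median mean log2 signal of 6.81. The log2 ratio of 3' to 5' signal for Gapdh and Actb, a measure of RNA length and labelling, was 2.21, 2.01, 1.75, 1.24 and 1.16 in calorie-restricted replicates 1 to 5, against 0.91, 0.76, 0.94, 1.39 and 1.25 in control replicates 1 to 5. The groups differed by 0.62 (2-sided exact permutation p = 0.0476, where 0.00794 is the smallest possible), with calorie-restricted replicates 1, 2 and 3 above every control. The 9 hybridisation control probe sets, which read labelled cRNA added at hybridisation, also averaged higher on calorie-restricted arrays, at log2 12.51 ± 0.42, than on control arrays, at 11.86 ± 0.16 (SD, n = 5). Results are therefore also given for replicates 4 and 5 of each group, where the ratios of the diets were similar. The hybridisation controls still differed there, at 12.27 and 12.08 in calorie-restricted replicates 4 and 5 against 11.86 and 11.84 in control replicates 4 and 5.

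One member, Car9, was higher in calorie-restricted kidney, and no other member passed the test in either direction. Of the 17 probe sets 13 passed the filter, at least 1 for each of the 8 genes, and these were tested with limma among 22519 probe sets, with p-values adjusted over all of them and a threshold of 0.05. The single call is 7.69% of the 13, against 6.09% of all tested probe sets called in either direction, so the share of members called was near that of the array as a whole. On the array as a whole 2.93% were called higher and 3.16% lower in calorie restriction, or 659 against 712 probe sets. This split depends on the scaling: with each array centred on its median it was 315 higher against 1218 lower. Among the 13, 4 had an unadjusted p under 0.05 (Car9, Car12 1447762_x_at, Car4 1418094_s_at and Car3 1430584_s_at), and 26.1% of all tested probe sets did. For 0 of the 13 were the values of the diets free of overlap, which held for 7.12% of all tested probe sets. The difference, calorie restricted minus control, was above 0 for 5 and below 0 for 8 probe sets. Its median was −0.07 on the log2 scale over the 13, against 0.00 over all tested probe sets. MAS5 signals of different probe sets depend on their probes, so no order of abundance among the genes is drawn from them.

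**Figure D1:**
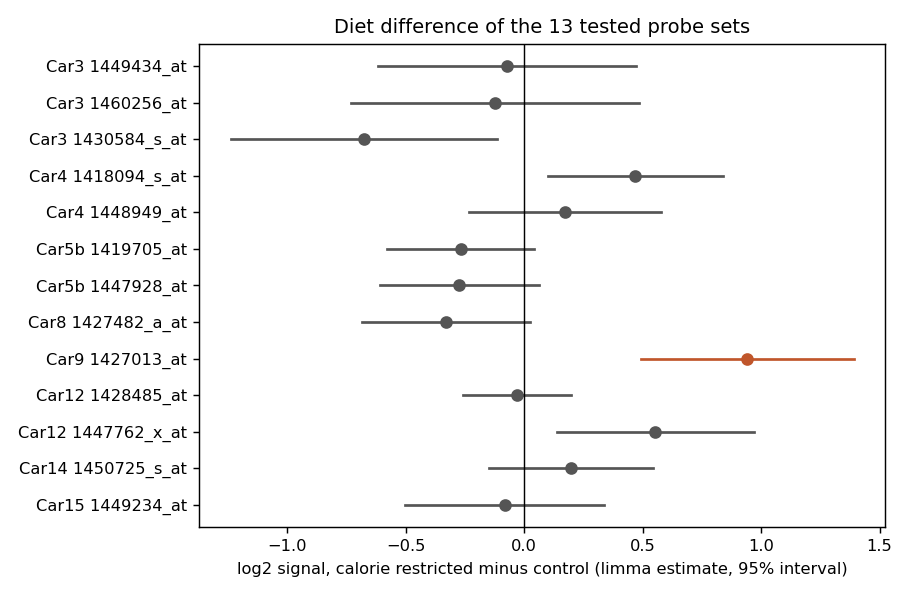
Log2 difference in signal, calorie restricted minus control, for each of the 13 tested probe sets; points are limma estimates, lines their 95% intervals, and the orange point is the probe set with an adjusted p under 0.05. Car9 stood at 0.94, while the other 12 estimates lay between −0.68 and 0.55.

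Car9 is a transmembrane enzyme with its catalytic domain outside the cell. Its human counterpart is a well known target of hypoxia-inducible factors, through a response element beside its start site, and is low in healthy human kidney. The 250 bases before the mouse Car9 start site in RefSeq (GRCm38.p6, chr4:43506776-43507025, plus strand) are shown because this gene carried the only call among the members. Capitals mark the core of the hypoxia response element, ACGTG, which here lies on the opposite strand and so reads CACGT. Its first base lies 18 bases before the start site, and it is not part of the overlapping E-box motif CACGTG.
Car9: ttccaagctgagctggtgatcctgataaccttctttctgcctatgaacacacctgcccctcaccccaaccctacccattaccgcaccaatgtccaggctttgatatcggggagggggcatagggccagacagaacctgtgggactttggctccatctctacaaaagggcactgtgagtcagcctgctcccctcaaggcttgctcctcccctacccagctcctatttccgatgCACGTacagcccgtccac

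Windows of 300 bases, from 250 before to 50 after the start, were in RefSeq's table for 6 of the 8 genes, with Car3 and Car8 the others. The core was searched on both strands and found in 3 of the 6, each time as CACGT and outside CACGTG, and in 6447 of all 32851 windows (19.6%). A match describes letters only and does not show that a factor binds there. The 3 matches are set side by side with the 10 bases around them to show that the 2 genes without a called difference hold the same letters: Car9 at chr4:43506998-43507022 on the plus strand, Car4 at chr11:84957746-84957770 on the plus strand and Car14 at chr3:95904678-95904702 on the minus strand, each written along its gene.
Car9: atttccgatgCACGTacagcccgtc
Car4: agccgactccCACGTctagccgtcc
Car14: cccccctcctCACGTacaccggttt

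Car9 had signals of 918, 795, 753, 821 and 1018 in calorie-restricted replicates 1 to 5, against 799.8, 418, 315, 346 and 484 in control replicates 1 to 5. Control replicate 1 lay inside the calorie-restricted range, and the other 4 controls lay below every calorie-restricted mouse. The mean was 861 ± 107 in calorie-restricted kidney and 472 ± 194 in control kidney (SD, n = 5). The log2 difference was 0.94 ± 0.21 (SE, 95% interval 0.49 to 1.39, limma adjusted p = 0.0256), which is 1.92-fold between the means of the log2 signals. Car9 has 1 probe set on the array, so no second probe set bears on the call.

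**Figure D2:**
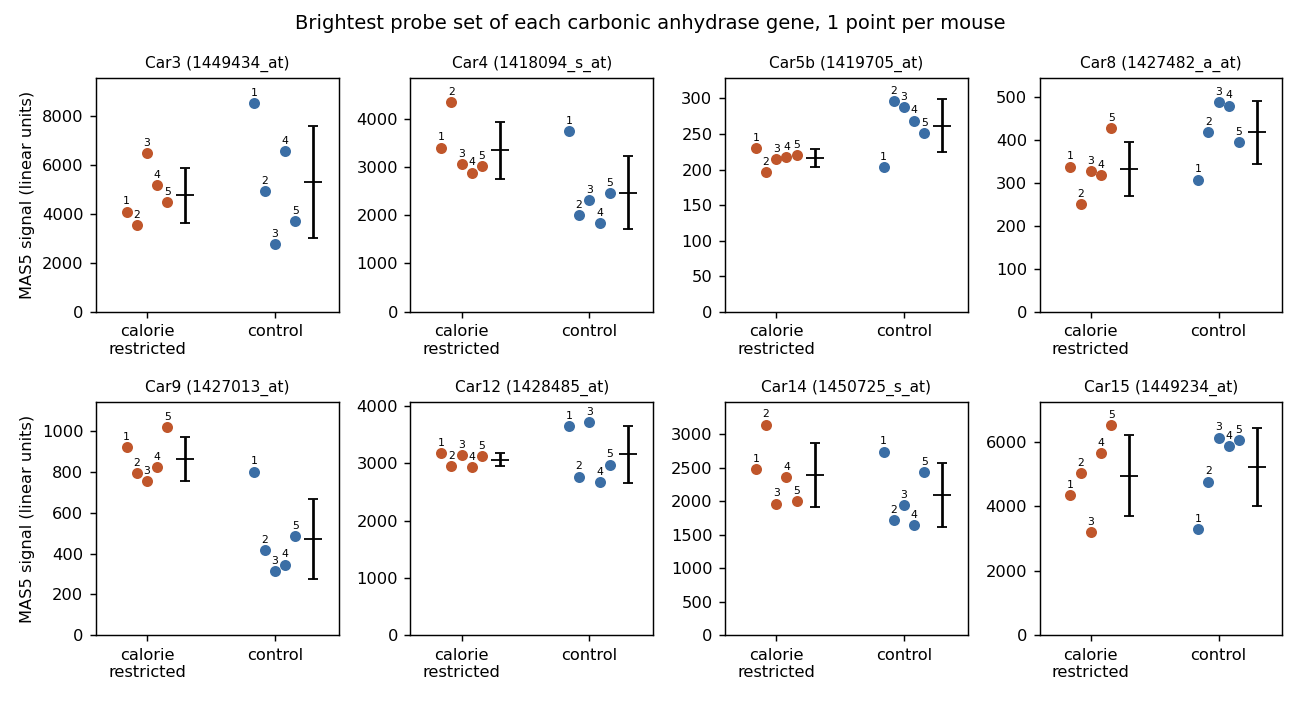
MAS5 signal (linear units) of the brightest probe set of each of the 8 genes, with 1 numbered point per mouse, calorie restricted at left and control at right; bars are means with SD. For Car9, 4 of 5 controls lay below all calorie-restricted mice, and control replicate 1 was the highest control for Car3, Car4, Car9 and Car14.

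The direction of the Car9 difference was the same under all 22 other ways of processing the signals or choosing the arrays, between 0.82 and 1.16, but its adjusted p crossed the threshold often. It passed in 11 of the 22 and missed in 11, with an adjusted p of 0.00307 to 0.295. Without the filter on low signals the adjusted p was 0.0545, and without the intensity trend of the variance model 0.0568. With control replicate 1 left out the difference was 1.15, with an adjusted p of 0.00307. Leaving out any 1 of calorie-restricted replicates 1, 2 and 3 or of control replicates 2, 3 and 4 gave 0.82 to 0.99, with an adjusted p of 0.0515 to 0.0636. Replicates 4 and 5 of each group alone, 2 against 2 mice of similar 3' to 5' ratio, gave 1.16 ± 0.21 (limma adjusted p = 0.0547). That choice also leaves out control replicate 1, so the effects of the ratio and of that mouse cannot be told apart there. A model that holds the ratio gave 1.07 ± 0.29 (limma adjusted p = 0.161). The part of the ratio in the Car9 difference was not tested.

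**Figure D3:**
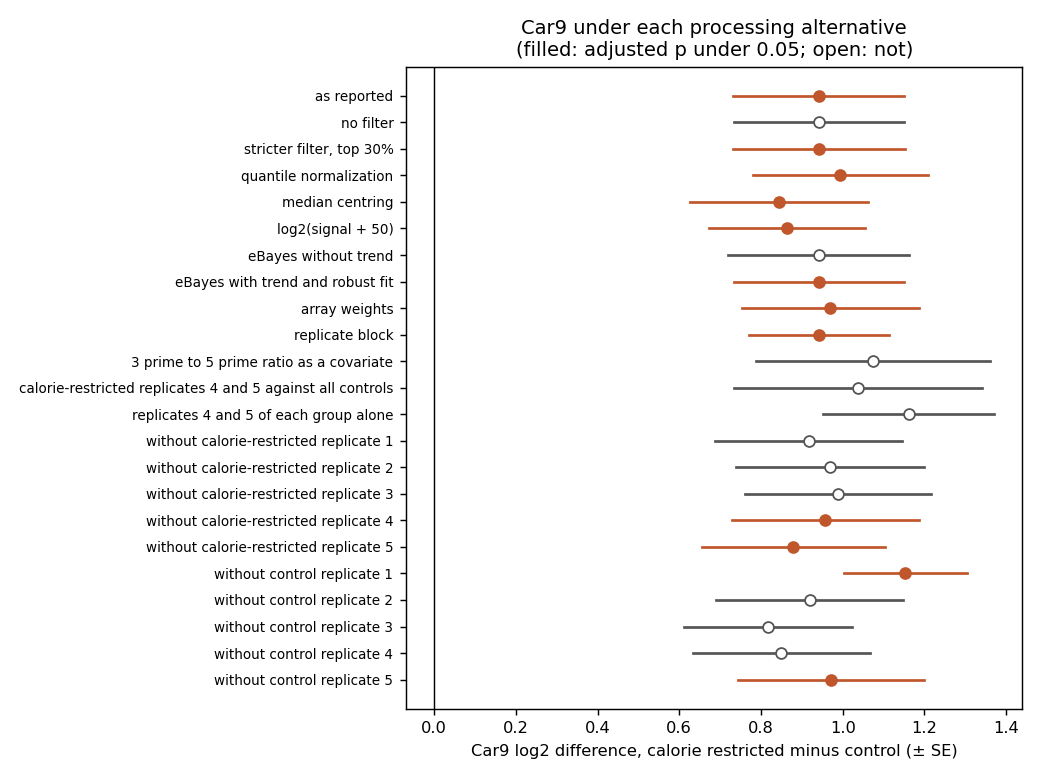
Car9 log2 difference, calorie restricted minus control, with SE, under the reported setting and 22 alternatives; filled points have an adjusted p under 0.05. All estimates lay between 0.82 and 1.16, and 11 of the 22 alternatives passed the threshold.

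Other targets of the hypoxia-inducible factors were read beside Car9, from a list of 11 genes of which Ankrd37 fell below the filter. Ankrd37 had 65.3 to 99.2 in calorie-restricted and 99.6 to 188 in control mice, a log2 difference of −0.64 with no overlap. Of 10 tested genes 1 was higher and 0 were lower, with a median difference of 0.01; by their brightest probe sets, 3.08% of all tested genes were called higher and 3.02% lower, with a median of −0.01. The called gene was the glycolytic enzyme Pgk1, at 27780 ± 2221 in calorie-restricted kidney and 19187 ± 1701 in control kidney (SD, n = 5), a log2 difference of 0.53 ± 0.08 (limma adjusted p = 0.0114), read by a probe set of the x_at type that can bind related transcripts. Vegfa, the vascular growth factor, had 2021 ± 357 in calorie-restricted and 2330 ± 195 in control kidney, a difference of −0.22 ± 0.12 (limma adjusted p = 0.272). Slc2a1, the glucose transporter GLUT1, differed by 0.16 ± 0.15 (limma adjusted p = 0.518). With quantile normalization 0 of the 10 were called, nor were any in replicates 4 and 5 alone or in the model that holds the RNA ratio, with medians of −0.01, −0.06 and −0.02. With median centring 1 of the 10 was called higher, with a median of −0.08.

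Among 12195 other genes, those whose deviations from the diet means followed Car9 most closely over the 10 arrays were Dynll2 (Pearson's r = 0.93), a dynein light chain, Crem (0.91), a transcriptional regulator of the cyclic AMP pathway, and Aldh3b2 (0.90), an aldehyde dehydrogenase. Their own diet differences were 0.26, 0.04 and 0.26 on the log2 scale, and none passed the test. The 10 points share the arrays and their scaling, and control replicate 1 stands far from the other controls for Car9.

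Car4, Car14 and Car15 are membrane enzymes of tubule cells. Car4 is anchored by a lipid tail on both faces of proximal tubule cells and is also found on capillary endothelium, Car14 is a transmembrane enzyme of the mouse proximal tubule, and Car15 is a lipid-anchored enzyme present in mouse kidney that humans lack as a working gene. None of the 3 passed the test.

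The Car4 probe set 1418094_s_at had signals of 3399.6, 4341, 3059, 2881 and 3015 in calorie-restricted replicates 1 to 5, against 3737, 1998, 2307, 1829 and 2449 in control replicates 1 to 5. The 4 controls other than replicate 1 lay below every calorie-restricted mouse, and control replicate 1 lay above 4 of the 5. On the log2 scale the diets differed by 0.47 ± 0.17 (95% interval 0.10 to 0.84, limma adjusted p = 0.107). Without control replicate 1 it was 0.63, with an adjusted p of 0.0216, and calorie-restricted replicates 4 and 5 alone against all 5 controls gave 0.31. Its name ends in s_at, which marks probes shared by several transcripts.

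The second Car4 probe set, 1448949_at, had 1867, 2789, 2039.7, 2000.1 and 2134 in calorie-restricted replicates 1 to 5, against 3235, 1872, 1680.3, 1366 and 1796 in control replicates 1 to 5. Here control replicate 1 was above all mice of both groups, and control replicates 3, 4 and 5 lay below every calorie-restricted mouse. Between the diets the log2 difference was 0.17 ± 0.19 (95% interval −0.23 to 0.58, limma adjusted p = 0.599). It was 0.36 without control replicate 1, 0.08 without calorie-restricted replicate 2, 0.05 without control replicate 4 and 0.40 in replicates 4 and 5 alone. Over the 10 arrays the deviations of both Car4 probe sets from their diet means followed each other, with r = 0.90.

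Car14 had 2478, 3144, 1963, 2359 and 2003 in calorie-restricted replicates 1 to 5, against 2739, 1714, 1947, 1643 and 2429 in control replicates 1 to 5. The groups overlapped widely, with means of 2389 ± 477 in calorie-restricted and 2094 ± 473 in control kidney (SD, n = 5). Calorie-restricted minus control gave a log2 difference of 0.20 ± 0.16 (95% interval −0.15 to 0.54, limma adjusted p = 0.464), and its probe set is also of the s_at type. It was 0.09 without calorie-restricted replicate 2, 0.30 without control replicate 1, 0.12 in replicates 4 and 5 alone and 0.06 in the model that holds the RNA ratio. Within the diets Car14 followed Car4 1418094_s_at with r = 0.89 over the 10 arrays.

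Car15 had 4337, 5033, 3203, 5633 and 6522 in calorie-restricted replicates 1 to 5, against 3302.5, 4759.8, 6122, 5858 and 6048 in control replicates 1 to 5. Both groups held 1 mouse near the low end and overlapped over almost their whole range. The log2 difference was −0.08 ± 0.20 (95% interval −0.50 to 0.34, limma adjusted p = 0.826), and it was −0.24 without control replicate 1 and 0.03 in replicates 4 and 5 alone. In contrast to Car4, Car9 and Car14, control replicate 1 was the lowest control.

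Markers of the proximal tubule were read beside these genes. Of 13 tested markers 8 were higher, 0 lower and 5 not called in calorie restriction, with a median difference of 0.38 and a lowest of −0.16, and their summed signal was 209236 to 229990 in calorie-restricted mice against 146674 to 182735 in control mice, with no overlap. Fbp1, the gluconeogenic fructose bisphosphatase, differed by 0.37 ± 0.07 (limma adjusted p = 0.0167), Slc27a2, a fatty acid transport protein, by 0.40 ± 0.08 (limma adjusted p = 0.0181), and Slc5a2, the glucose transporter SGLT2, by 0.38 ± 0.08 (limma adjusted p = 0.0198). With quantile normalization 1 of the 13 was called and the median was 0.09, and in replicates 4 and 5 alone 2 were called with a median of 0.35. In the model that holds the RNA ratio 0 were called, also with a median of 0.35. Median centring gave 5 called higher, with a median of 0.28. The share of the marker differences in those of Car4, Car14 and Car15 was not tested. Slc7a13, an amino acid transporter of the last proximal tubule segment, had 3953, 6178, 10670.0, 9230.3 and 10497 in calorie-restricted replicates 1 to 5, against 12294, 2846, 1761, 1027 and 2990.4 in control replicates 1 to 5. Control replicate 1 stood above the other controls there as it did for Car4, Car9 and Car14, but Slc7a13 was chosen after its values were seen. The other markers were mixed: control replicate 1 was the highest control for Slc5a2, but not for Fbp1 or Slc27a2. Its summed signal of the markers, 182735, was the highest of the controls, against 146674 to 176294 in the others.

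Car12, a transmembrane enzyme with its active site outside the cell, is found in the collecting duct, and its 2 tested probe sets gave different pictures. The brighter, 1428485_at, had 3177, 2952, 3151, 2933 and 3129 in calorie-restricted replicates 1 to 5, against 3658, 2772, 3716, 2674 and 2979.9 in control replicates 1 to 5. The calorie-restricted mice lay close together in the middle of the control range, with means of 3069 ± 116 and 3160.1 ± 494 (SD, n = 5) in calorie-restricted and control kidney. On the log2 scale the diets differed by −0.03 ± 0.11 (95% interval −0.26 to 0.20, limma adjusted p = 0.891), and it turned to 0.10 in replicates 4 and 5 alone.

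The dimmer Car12 probe set, 1447762_x_at, had 434, 462, 344, 297 and 364 in calorie-restricted replicates 1 to 5, against 183, 203, 293, 279 and 359.9 in control replicates 1 to 5. Calorie-restricted replicates 1, 2 and 5 lay above every control, and 4 of 5 controls lay below every calorie-restricted mouse. Between the diets the log2 difference was 0.55 ± 0.19 (95% interval 0.14 to 0.97, limma adjusted p = 0.0944). It was 0.19 with the RNA ratio in the model and 0.05 in replicates 4 and 5 alone. Probe sets of the x_at type can bind related transcripts, and 1447762_x_at is of that type. Deviations of the pair of Car12 probe sets from their diet means had an r of −0.13 over the 10 arrays. A further Car12 probe set, 1446517_at, lay below the filter, at 9.23 to 49.8 in calorie-restricted and 7.89 to 16.1 in control mice.

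Car3 is a cytosolic enzyme with weak activity toward carbon dioxide, known for its abundance in skeletal muscle, fat cells and liver. Its brightest probe set, 1449434_at, had 4088, 3547, 6468, 5181 and 4483 in calorie-restricted replicates 1 to 5, against 8529, 4933, 2749, 6551 and 3713 in control replicates 1 to 5. Control mice spread over a wide range that held all 5 calorie-restricted mice. Calorie-restricted minus control gave a log2 difference of −0.07 ± 0.25 (95% interval −0.62 to 0.47, limma adjusted p = 0.883), and it was 0.13 without control replicate 1.

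The second bright Car3 probe set, 1460256_at, had 442, 485, 937, 754 and 914 in calorie-restricted replicates 1 to 5, against 1376, 852, 554, 716 and 454 in control replicates 1 to 5. Its groups overlapped over most of their range, with control replicate 1 again the highest mouse. The difference was −0.12 ± 0.28 (95% interval −0.73 to 0.49, limma adjusted p = 0.820), and its within-diet deviations followed those of 1449434_at with r = 0.80. Its direction turned to 0.54 ± 0.23 in replicates 4 and 5 alone (limma adjusted p = 0.308), to 0.45 ± 0.32 in the model that holds the RNA ratio (limma adjusted p = 0.587) and to 0.11 without control replicate 1.

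The dim Car3 probe set 1430584_s_at had 81.7, 96.8, 159.8, 144 and 135 in calorie-restricted replicates 1 to 5, against 161, 243, 164, 303 and 133 in control replicates 1 to 5. Of the controls 4 lay above every calorie-restricted mouse, and control replicate 5 lay among them. The difference was −0.68 ± 0.26 (95% interval −1.24 to −0.11, limma adjusted p = 0.124), and it was −0.41 in the model that holds the RNA ratio. The last Car3 probe set, 1453588_at, lay below the filter, at 29.8 to 89.8 in calorie-restricted and 4.56 to 148 in control mice.

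Fat cell and muscle markers were read beside Car3, because both tissues are rich in the enzyme. Of 7 tested adipocyte markers 2 were lower and 0 higher in calorie restriction, and their summed signal was 7641 to 13161 in calorie-restricted mice against 15743 to 21754 in control mice, with no overlap. Fabp4, a fatty acid carrier, fell to 7781 ± 1853 in calorie-restricted kidney, against 12983 ± 1293 in control kidney (SD, n = 5), a difference of −0.77 ± 0.14 (limma adjusted p = 0.0170). Fabp4 made up most of the summed signal, at 5474 to 9895 in calorie-restricted and 11740 to 14819 in control mice. Of the 7 markers only Fabp4 had values free of overlap. Cidea, a lipid droplet protein, differed by −1.10 ± 0.29 (limma adjusted p = 0.0426). With quantile normalization 1 of the 7 was called, with a median of −0.78, against −0.77 as reported. Median centring gave 2 called lower, with a median of −0.86. In replicates 4 and 5 alone 0 were called, with a median of −0.51, and in the model that holds the RNA ratio 0 were called, with a median of −0.42. Among calorie-restricted mice replicates 1 and 2, with the highest ratios, had the lowest summed signals of these markers, 7641 and 8923. The leptin gene Lep was below the filter. Skeletal muscle markers were dim, with 7 of 8 below the filter and a summed signal of 364 to 570.3 in calorie-restricted and 297 to 522 in control mice.

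Adipoq, which encodes the fat cell hormone adiponectin, had 635, 645, 1109.8, 1392 and 1224 in calorie-restricted replicates 1 to 5, against 2946, 1554, 1033, 2549 and 1105 in control replicates 1 to 5. Control replicates 1 and 4 stood highest for it, as they did for Car3 1449434_at. Between the diets Adipoq differed by −0.82 ± 0.30 (limma adjusted p = 0.109). The bright Car3 probe sets differed by only −0.07 and −0.12, and the dim 1430584_s_at by −0.68. The r values that follow are taken with the diet means removed, so they do not describe these differences. Within the diets the r of Car3 1449434_at with Adipoq was 0.88 over the 10 arrays, and over the 7 tested adipocyte markers it ran between 0.05 for Ucp1, the uncoupling protein of brown fat, and that value. For Car3 1460256_at the r ran between 0.03 for Ucp1 and 0.85 for Adipoq. For the dim Car3 1430584_s_at it was 0.64 with Adipoq and ran between −0.38 for Cidea and 0.74 for Retn, the fat cell hormone resistin. The arrays and their scaling are shared by these values, and the part of fat cells in the Car3 signal was not tested.

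**Figure D4:**
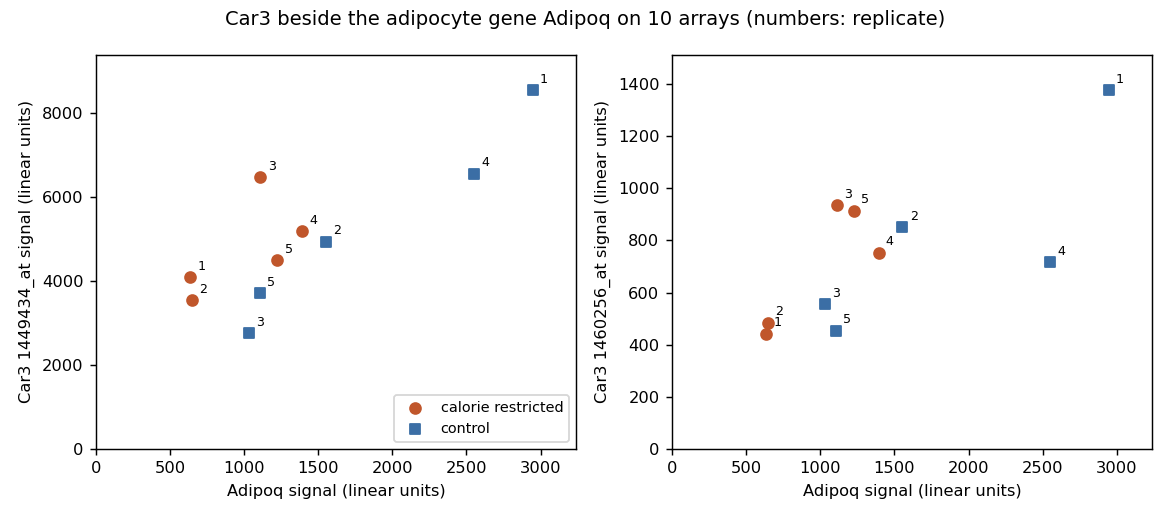
Car3 signal (linear units, 2 probe sets) against the signal of the adipocyte gene Adipoq on 10 arrays, with 1 numbered point per mouse, circles for calorie restricted and squares for control. Control replicate 1 was highest on all 3 probe sets, at 8529 and 1376 for Car3 and 2946 for Adipoq.

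Car5b supplies bicarbonate inside mitochondria, and both of its probe sets had lower means in calorie-restricted kidney without passing the test. Car5b 1419705_at had 230.3, 196, 214, 218 and 220.3 in calorie-restricted replicates 1 to 5, against 204, 297, 288, 269 and 252 in control replicates 1 to 5. The calorie-restricted mice lay close together, and 4 of 5 controls lay above all of them. The log2 difference was −0.27 ± 0.14 (95% interval −0.58 to 0.04, limma adjusted p = 0.258). Car5b 1447928_at had 179, 210.3, 254, 196 and 174 in calorie-restricted replicates 1 to 5, against 231, 222, 295, 252 and 221 in control replicates 1 to 5. Here 4 of 5 calorie-restricted mice lay below every control, and the difference was −0.27 ± 0.16 (95% interval −0.61 to 0.06, limma adjusted p = 0.285). The size was the same on both probe sets, yet their within-diet deviations had an r of 0.06 over the 10 arrays.

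Car8 has lost a residue needed to hold the zinc ion and is known as a partner of the inositol trisphosphate receptor in cerebellar Purkinje cells of mice. Its tested probe set, 1427482_a_at, had 337, 251, 327, 318 and 426 in calorie-restricted replicates 1 to 5, against 307, 417, 487, 479 and 394 in control replicates 1 to 5. The groups overlapped, with 251 to 426 in calorie-restricted and 307 to 487 in control mice. Only with both calorie-restricted replicate 5 and control replicate 1 set aside did the remaining mice of the diets not overlap. On the log2 scale the diets differed by −0.33 ± 0.17 (95% interval −0.69 to 0.02, limma adjusted p = 0.221), and calorie-restricted replicates 4 and 5 alone against all 5 controls gave −0.16. Both remaining Car8 probe sets lay below the filter, 1424958_at at 82.6 to 142 in calorie-restricted and 53.9 to 131 in control mice, and 1457904_at at 54.1 to 83.5 in calorie-restricted and 32.0 to 71.8 in control mice.

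Among the members, the mice of a diet group varied in a shared way for some pairs of genes. Car4 1418094_s_at ran against Car5b 1419705_at (r = −0.83) and Car8 1427482_a_at (r = −0.80) within the diets, and Car4 1448949_at ran with Car9 (r = 0.75). The other Car5b probe set, 1447928_at, did not run against Car4 1418094_s_at (r = −0.07). These pairs are chosen examples from all pairs of the tested probe sets. Control replicate 1 was the highest control for 6 and the lowest for 4 of the 13 tested probe sets. These r values are over 10 arrays that share their scaling, and they rest in part on that mouse.

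The remaining carbonic anhydrases of the array gave no call. Car1, Car6 and Car13 lay below the filter, and of the 5 tested genes (Car2, Car5a, Car7, Car10 and Car11) 0 were called by limma and 0 had an unadjusted p under 0.05. Car2, the cytosolic enzyme of tubule and intercalated cells, had 11196 ± 2000.1 in calorie-restricted and 11984 ± 1899 in control kidney (SD, n = 5), a log2 difference of −0.10 ± 0.13 (limma adjusted p = 0.653). Car7, a cytosolic enzyme best known from brain, differed by 0.10 ± 0.11 (limma adjusted p = 0.606).

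Partners of these enzymes in acid and base transport were taken from lists of transporters and pumps. Of 9 tested bicarbonate transporters 1 was higher and 0 were lower: Slc4a1, the anion exchanger of type A intercalated cells and red cells, had 1623 ± 505 in calorie-restricted and 1013 ± 132 in control kidney (SD, n = 5), a log2 difference of 0.64 ± 0.17 (limma adjusted p = 0.0466). The Slc4a1 probe set is of the x_at type, which can bind related transcripts. With quantile normalization, with median centring, in replicates 4 and 5 alone and in the model that holds the RNA ratio 0 of the 9 were called. Red cell markers were low, with a summed signal of 391 to 639.8 in calorie-restricted and 178 to 600.4 in control mice, and their part in the Slc4a1 difference was not tested. Of 8 tested proton exporters 0 were called, with 1 at an unadjusted p under 0.05: Atp6v0a4, a proton pump subunit of intercalated cells, differed by −0.43 ± 0.14 (limma adjusted p = 0.0704), and 1 was called lower with median centring. Of 5 tested genes of ammonia production and transport 0 were called by limma and 0 had an unadjusted p under 0.05, with Glud1, the glutamate dehydrogenase, at −0.12 ± 0.08 (limma adjusted p = 0.383). Their median log2 differences were 0.13, 0.06 and −0.0039 for bicarbonate transporters, proton exporters and ammonia genes.

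Intercalated cell markers, read because Car12 and Car2 are found in the collecting duct, had 2 of 7 genes higher and 0 lower, with a median of 0.00. Besides Slc4a1 this was Aqp6, an intracellular channel of intercalated cells, at 2993 ± 591 in calorie-restricted and 1749 ± 257 in control kidney (SD, n = 5), a difference of 0.77 ± 0.14 (limma adjusted p = 0.0170). With quantile normalization and with median centring 1 of the 7 was called, and in replicates 4 and 5 alone and in the model that holds the RNA ratio 0 were. Principal cell markers gave 0 calls of 7, with 2 at an unadjusted p under 0.05, and thick limb and distal tubule markers 0 of 9, also with 2. Of 9 endothelial markers, read because Car4 is found on capillaries, limma called 0 and 4 had an unadjusted p under 0.05. These 4 were all lower: Pecam1 at −0.60, Emcn at −0.65, Egfl7 at −0.55 and Tie1 at −0.51. Of the 9 differences 2 were above 0, among them 0.23 for Plvap, the brightest marker. The summed signal of the 9 was 9213 to 11105 in calorie-restricted and 10075 to 13053 in control mice, with a median difference of −0.17.

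**Figure D5:**
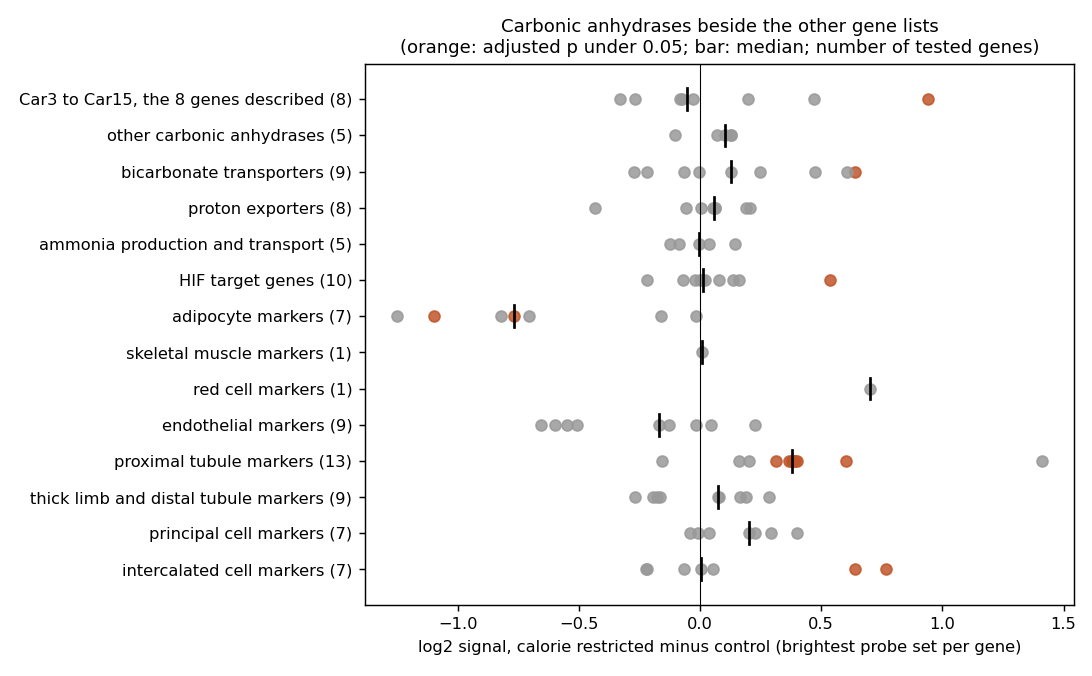
Log2 difference, calorie restricted minus control, of the brightest probe set of every tested gene, by list, with the number of tested genes in brackets; orange points have an adjusted p under 0.05 and bars mark medians. The 8 genes described here span −0.33 to 0.94 with 1 call, while 8 of 13 proximal tubule markers were called higher and 2 of 7 adipocyte markers lower.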

How the data were processed

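Per the submitters' processing notes, the authors made the deposited intensity values, on a linear scale, with MAS5 and Affymetrix Expression Console, whose versions are not stated there. In MAS5 mismatch probes serve as background and 1 factor scales each array, so that differences between arrays that depend on brightness remain. RNA was extracted with Trizol, and cRNA was made from 5 ug of it, per the labels' protocols. The table held 45101 probe sets, of which 64 were controls. The platform annotation, which can be old, gave 34945 probe sets 1 symbol, 932 several and 9224 none, and only those with 1 symbol were named.

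Before taking log2, 922 signals under 1 were raised to 1. Without the controls, probe sets at or above the median mean log2 signal over all 10 arrays were tested, 22519 in all for 12196 genes. Calorie restricted minus control was fitted with limma 3.58.1 in R 4.3.3 (lmFit, eBayes with trend, 2-sided, Benjamini-Hochberg over all tested probe sets), 5 mice a group, and the code was tested on simulated data. Differences are log2 values with limma's standard error, and each gene is read by its brightest probe set. The number of arrays limits the precision. The labels call the arrays of a group biological replicates, and p-values measure the spread between them. Same-numbered mice of the diets did not deviate together (r −0.14 to −0.09), so replicate numbers were not taken as pairs.

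The members, lists and settings were chosen with earlier results of these data known. Named were all member probe sets and the 3 genes most like each called member. Each list gave up to 3 genes past the threshold or, where none passed, up to 2 by smallest p. Vegfa and Slc2a1 were named beside the called Pgk1, outside this rule. Alternatives were other filters, normalizations, offsets and variance models, array weights, a replicate block, the RNA ratio as a covariate, replicates 4 and 5, and each array left out. Promoters are RefSeq's. Adipoq, Lep, Retn, Ucp1 and Slc7a13 were chosen by name after their values were seen.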

Additional observations from a re-analysis of the deposited data

How the results depend on the processing

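Of 282 results of the 13 probe sets under an alternative, 252 kept their direction and their side of the threshold, 11 lost the threshold, 1 gained it and 18 turned direction. The 11 losses were all Car9, the gain was Car4 1418094_s_at without control replicate 1, and the turns came from 4 probe sets whose differences lay near 0. For Car3 1449434_at these were 0.0055 with array weights and 0.033 with the ratio as a covariate, and for Car3 1460256_at 0.45 with the covariate, 0.18 with calorie-restricted replicates 4 and 5 set against every control and 0.54 for replicates 4 and 5 of each group alone. For Car12 1428485_at they were 0.013 with the covariate and 0.10 for replicates 4 and 5 alone, and for Car15 0.042 with the covariate, 0.25 with calorie-restricted replicates 4 and 5 against every control and 0.026 for replicates 4 and 5 alone. With 1 array left out at a time the differences ran between −0.28 and 0.13 for Car3 1449434_at, −0.29 and 0.11 for Car3 1460256_at, −0.086 and 0.033 for Car12 1428485_at, and −0.24 and 0.065 for Car15. The causes were not tested.

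The 1371 calls of the whole array became 287 without the filter, 751 with quantile normalization, 243 without the trend, 2292 with array weights, 127 with the replicate block, 9 with the ratio as a covariate, 1 for calorie-restricted replicates 4 and 5 against all controls, 198 for replicates 4 and 5 alone, and 125 to 2481 with 1 array left out; fewer arrays or degrees of freedom enter the last 5. Of the members, 1 was called with the replicate block (Car9, adjusted p = 0.0467). By limma 0 were called without the filter, without the trend, with the covariate, for replicates 4 and 5 alone or for the calorie-restricted ones of these against all controls, and 0 to 2 with 1 array left out. In the 11 settings with 0 called, 1 to 5 member probe sets had an unadjusted p under 0.05. Median centring moved the median of all probe sets by −0.10, and quantile normalization by 0.00. The difference of the 3' to 5' ratio ran between 0.49 and 0.75 with 1 array left out, with exact permutation p-values of 0.0397 to 0.0794. Detection calls were not used here, so whether a dim probe set lay above background was not tested.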
